A study of Mus musculus with 23 samples.

Results

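Zfp36, Zfp36l1 and Zfp36l2 encode a small family of RNA-binding proteins that shorten the life of messenger RNAs. The peaks described here were taken over the annotated span of each gene and within 10 kb of it, from every peak list of the study, with RefSeq gene spans of GRCm38, the mouse build also called mm10. The family was 3 of the 21887 protein-coding genes on chromosomes 1 to 19, X and Y, and 9 of the 10924 RNA polymerase II peaks lay in these windows. The proteins of this family bind AU-rich elements in the 3′ untranslated region of a messenger RNA through a pair of CCCH zinc fingers and recruit the CCR4-NOT deadenylase, which trims the poly(A) tail and starts decay. In T cells they are known as brakes on cytokine production and activation, and Zfp36l1 and Zfp36l2 together for their role in holding developing lymphocytes in quiescence.

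CUT&Tag, which uses an antibody to bring a DNA-tagging transposase to its target, was carried out on naive CD4+ T cells of spleen and pLN from DDX55 KO mice and from WT mice. DDX55 is a DEAD-box RNA helicase. RNA polymerase II, the histone mark H3K9me3 and DDX55 were each profiled in 2 DDX55 KO and 2 WT samples. R-loops, in which RNA pairs with one DNA strand, were profiled with the S9.6 antibody in 2 samples per genotype with 20 U RNase H and in 2 per genotype without it. A further 2 HA samples and 1 IgG sample, all labelled WT, named no peak list and were not analysed here. Strain, age, sex and the way the knockout was made are not given in the labels, and neither is the number of mice behind the samples. Each of the 4 targets had a single merged list that gave the start and end of its peaks, with neither a height nor values by sample. Every list, that of DDX55 included, combined DDX55 KO and WT samples. The R-loop list also combined samples with and without RNase H. A listed peak can thus not be traced to one genotype, nor an R-loop peak to untreated samples. Differences between DDX55 KO and WT cells, effects of RNase H and the error between replicates could therefore not be measured, and the depth was unknown. A peak from a population of cells also cannot separate the share of cells with polymerase at a place from the amount per cell. Marker genes of cell types were, like the other gene lists, chosen with earlier results of these data known. Of 10 marker genes of naive CD4 T cells, 8 had an RNA polymerase II peak over the span. The count was 0 of 7 for CD8 T and NK cells, 0 of 6 for B cells, 1 of 6 for myeloid cells (Mpo) and 1 of 5 for erythroid cells (Klf1), and 32.2% of all protein-coding genes had such a peak. Within 10 kb of the span, where a peak can belong to a neighbour, the counts were 9 of 10 for naive CD4 T cells, 2 of 7 for CD8 T and NK cells, 1 of 6 for B cells, 2 of 6 for myeloid cells and 2 of 5 for erythroid cells, against 41.6% of all genes.

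The sequences below are the 250 bases before the start of Zfp36 and of Zfp36l1, taken from the RefSeq promoter table of GRCm38.p6, which matched 2 of the 3 genes. They are shown because an RNA polymerase II peak covered each start. Both lie on the minus strand, at chr7:28379229-28379478 and chr12:80113014-80113263, and are written 5′ to 3′ along the gene. Capitals mark the matches to the 8 motifs searched on both strands.
Zfp36: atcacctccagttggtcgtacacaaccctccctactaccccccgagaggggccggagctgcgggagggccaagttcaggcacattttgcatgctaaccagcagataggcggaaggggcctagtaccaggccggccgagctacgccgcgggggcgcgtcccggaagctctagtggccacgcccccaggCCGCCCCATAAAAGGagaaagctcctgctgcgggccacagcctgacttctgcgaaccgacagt
Zfp36l1: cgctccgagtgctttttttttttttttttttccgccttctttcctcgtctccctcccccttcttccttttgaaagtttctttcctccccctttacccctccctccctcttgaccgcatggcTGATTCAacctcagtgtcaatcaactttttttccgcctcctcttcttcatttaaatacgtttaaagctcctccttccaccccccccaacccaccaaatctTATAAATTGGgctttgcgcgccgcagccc

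The Zfp36 sequence held a CArG box, the element bound by serum response factor, at positions -58 to -49 counted back from the gene start. It shared its first base with a GC box, GGGCGG read on the other strand, at positions -63 to -58. Of 17492 promoter windows of 300 bases, 1.55% held a CArG box and 46.3% a GC box. The Zfp36l1 sequence held TATAAA, the TATA box, at positions -29 to -24, a motif present in 13.3% of the windows. A CCAAT motif on the other strand at -24 to -20 shared 1 base with it (39.2% of windows), and an AP-1 site, TGANTCA, lay at -129 to -123 (7.03%). TGACGTCA (2.33% of windows), CACGTG (7.91%) and GGAANTCC (5.20%) did not occur in either window. A match of letters is a description of the sequence and no evidence that a factor binds there. Over the 300 bases from 250 before to 50 after the start, GC content was 63.7% for Zfp36 and 52.0% for Zfp36l1, against a median of 56.3% over all windows. The ratio of observed to expected CpG was 0.699 and 0.840 for these genes in the same order, against a median of 0.577.

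All 3 family genes carried RNA polymerase II, and at the 10 kb window each had the same number of peaks. Every one had exactly 1 peak over its span and 3 within 10 kb. Over all protein-coding genes 32.2% had a peak over the span and 41.6% had one within 10 kb. The family genes are short, with spans of 2445 bp (Zfp36), 5254 bp (Zfp36l1) and 4024 bp (Zfp36l2). Among the 3118 protein-coding genes with spans of 2000 to 6000 bp, 25.3% had a peak over the span and 37.0% one within 10 kb, and 3.62% had 3 or more peaks within 10 kb. The equal number held for the span and for 10 kb, but within 3 kb Zfp36, Zfp36l1 and Zfp36l2 had 1, 3 and 2 peaks and within 50 kb 6, 5 and 3. With 3 genes these counts are a description and carry no test.

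**Figure D1:**
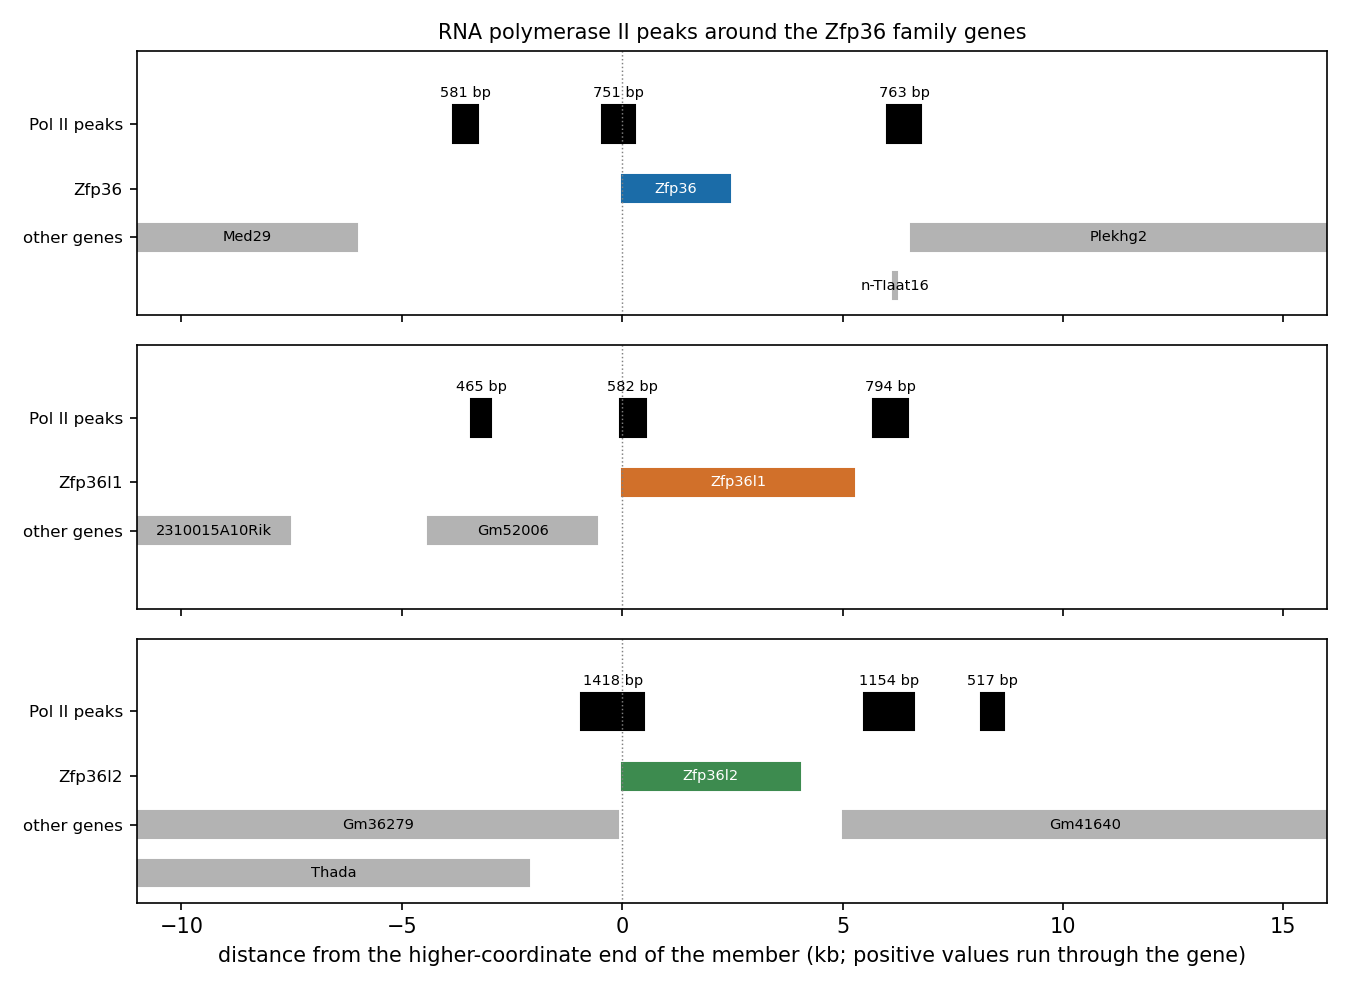
Map of the RNA polymerase II peaks (black boxes, width printed above) around Zfp36, Zfp36l1 and Zfp36l2, with the family gene coloured and other annotated genes in grey. The horizontal axis is the distance in kb from the higher-coordinate end of each gene, which is the gene start for Zfp36 and Zfp36l1, with positive values running through the gene. Each gene has 1 peak across that end and 2 peaks outside its span.

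At Zfp36 (gene 22695, chromosome 7, 28376784 to 28379228), which encodes tristetraprolin, the founding member of the family, the peak over the gene lay across its start. It ran from 28378941 to 28379691, a width of 751 bp, with 288 bp inside the gene and 463 bp upstream. Its midpoint lay at position -88 from the start, and all 250 upstream bases printed above were inside it. A second peak of 581 bp (28382497 to 28383077) lay 3269 bp upstream in no annotated gene, between Zfp36 and Med29, a Mediator subunit gene. The remaining peak of 763 bp (28372451 to 28373213) lay 3571 bp past the other end of Zfp36, and it covered the start of Plekhg2, a guanine nucleotide exchange factor gene, together with the transfer RNA gene n-TIaat16. The list assigns peaks to no gene, so this peak cannot be given to Zfp36 alone. The next peak outward, of 777 bp over the start of the elongation factor gene Paf1, was 13517 bp away and thus outside the window; Paf1 was named after its values were seen.

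At Zfp36l1 (gene 12192, chromosome 12, 80107760 to 80113013) the peak over the gene lay almost wholly inside it. It ran from 80112484 to 80113065 (582 bp), and 530 bp, or 91.1% of the peak, were within the span. Its midpoint lay 239 bp past the start. Of the 250 upstream bases 52 were in the peak, so that the TATA box lay inside it and the AP-1 site outside. A wider peak of 794 bp (80106534 to 80107327) lay 433 bp past the end of the gene, in no annotated gene. The third, of 465 bp (80115981 to 80116445), lay 2968 bp upstream inside Gm52006, a predicted gene of 3840 bp, and covered no annotated start. The start of the long noncoding RNA gene 2310015A10Rik carried the next peak, of 382 bp, at a distance of 19771 bp.

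At Zfp36l2 (gene 12193, chromosome 17, 84183924 to 84187947) 2 of the 3 peaks were the widest of the family's 9. The peak over the gene ran from 84187456 to 84188873, a width of 1418 bp. It covered 492 bp at the higher-coordinate end of Zfp36l2 and went on for 926 bp beyond it. There it met the long noncoding RNA gene Gm36279, which begins 97 bp from Zfp36l2 and held 830 bp of the peak, so the peak cannot be given to one of these genes alone. Both other peaks lay on the opposite side inside Gm41640, a long noncoding RNA gene 993 bp from Zfp36l2. They measured 1154 bp (84181318 to 84182471, at 1453 bp from Zfp36l2) and 517 bp (84179293 to 84179809, at 4115 bp). Thada, whose span begins 2109 bp from Zfp36l2, had no peak in the window, and no further peak was listed out to 50 kb.

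The peak over Zfp36l2 was wider than 94.3% of the 10898 RNA polymerase II peaks on these chromosomes, and 621 peaks were wider. The peaks over Zfp36 and Zfp36l1 were ordinary in width, wider than 60.9% and 43.9% of all peaks, whose median was 638 bp. Among the 6749 peaks within 3 kb of an end of a protein-coding gene, the median was 721 bp. The Zfp36l2 peak was wider than 93% of these, while the Zfp36 peak (751 bp) was above their median and the Zfp36l1 peak (582 bp) below it. Over the 9 peaks the widths ran between 465 and 1418 bp, with a median of 751 bp, and 5 of them exceeded the median of the list. The peak 433 bp past the end of Zfp36l1 was wider than the peak at its start, 794 against 582 bp. Width stood in for signal, which the lists lack. A wide peak may join several sites, or peaks of different samples, as the way of merging is not given.

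**Figure D2:**
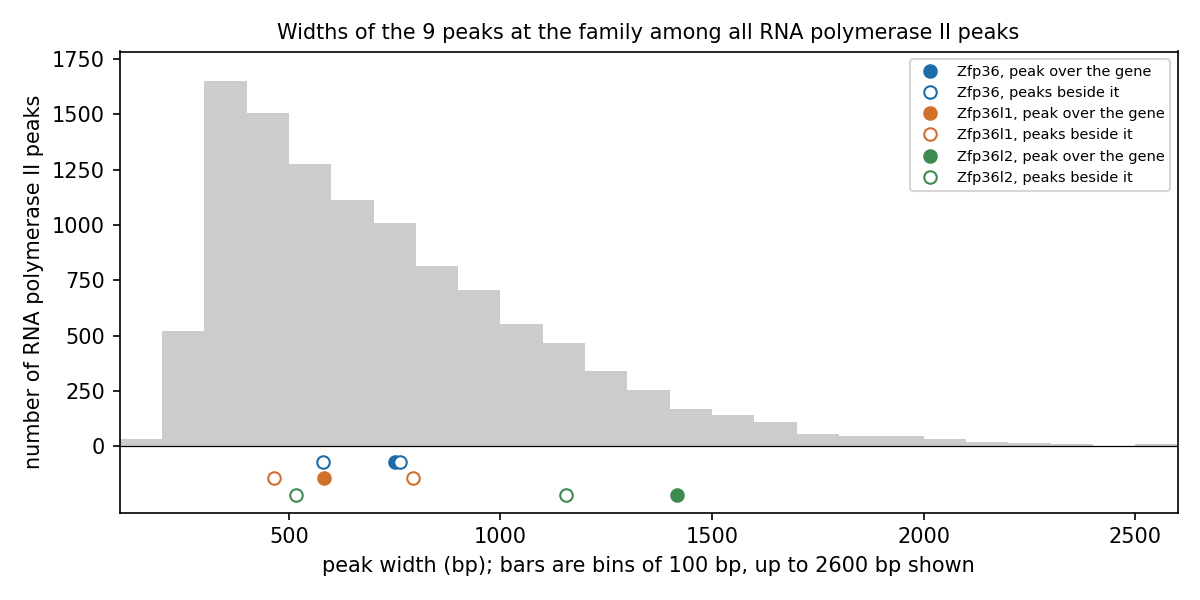
Number of RNA polymerase II peaks by width (grey bars, bins of 100 bp), with the 9 peaks at the family marked under the axis, filled for the peak over each gene and open for peaks beside it. The filled Zfp36l2 marker at 1418 bp stands in the upper tail, while those of Zfp36 (751 bp) and Zfp36l1 (582 bp) lie near the median of 638 bp.

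Summed over the span and 10 kb on each side, RNA polymerase II peaks covered 2095 bp at Zfp36, 1841 bp at Zfp36l1 and 3089 bp at Zfp36l2. Those sums were above 95.9%, 93.8% and 99.1% of the genes with spans of 2000 to 6000 bp. Of those genes 63% had no peak within 10 kb, so that any covered length ranked above them. Most of this length lay outside the family genes. Within the spans the peaks covered 288, 530 and 492 bp, or 11.8%, 10.1% and 12.2% of Zfp36, Zfp36l1 and Zfp36l2. Among all genes of this length class, with or without a peak, these shares were above 86%, 83.2% and 86.5% in the same order. Among the 789 genes of this length class with a peak over the span, the median share under a peak was 13.3%. The family genes were above 44.6%, 33.6% and 46.5% of these 789 in the same order.

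Among other short genes of the immediate early and quiescence programmes, 9 of 10 with a peak had a larger share of the span covered than any family gene. The comparison of spans was added after the values were seen. Of the genes in the AP-1, Egr and Nr4a, and quiescence lists, 10 had spans of 2000 to 6000 bp and a peak over the span, and their median share under a peak was 33.1%. The AP-1 genes Jun, Jund and Fos were at 65.0%, 53.8% and 43.8%. The quiescence gene Klf2, a transcription factor of naive T cells, was at 44.4%, and the antiproliferative genes Btg2 and Btg1 were at 39.9% and 26.4%. Slfn2, which is needed for T cell quiescence, and Cdkn1b, an inhibitor of the cell cycle, were at 25.5% and 22.5%. Egr1 at 17.2% was nearer to the family, and Egr3 at 5.68% was below it. The order by width of the widest peak over the span was different. The Zfp36l2 peak (1418 bp) was wider than those of Fos, Egr1, Klf2, Slfn2 and Egr3 (301 to 1239 bp). It was narrower than those of Jun, Jund, Btg1, Btg2 and Cdkn1b (1549 to 2153 bp). The peaks over Zfp36 (751 bp) and Zfp36l1 (582 bp) were wider than that of Egr3 alone. Covered length within 10 kb overlapped between these groups, with a family range of 1841 to 3089 bp against medians of 1980 bp in 10 AP-1 genes, 2370 bp in 7 Egr and Nr4a genes and 2720 bp in 10 quiescence genes. The lists were small and chosen with results known, and no test of this difference was made.

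**Figure D3:**
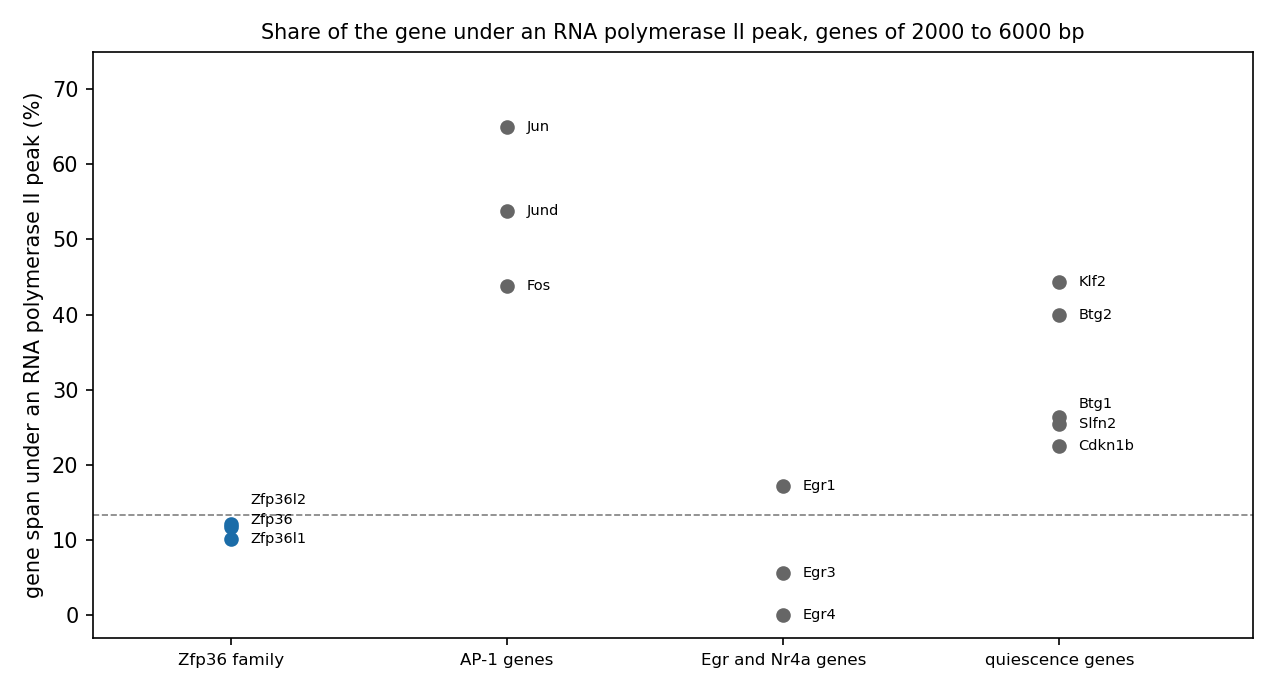
Percent of the gene span under an RNA polymerase II peak for the Zfp36 family and for genes of the AP-1, Egr and Nr4a, and quiescence lists with spans of 2000 to 6000 bp, 1 point per gene; Egr4 had no peak. The dashed line is the median of 13.3% over the 789 genes of that length with a peak, and the family genes sit just under it at 10.1% to 12.2%, below all listed genes with a peak except Egr3.

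No H3K9me3, R-loop or DDX55 peak lay within 10 kb of any of the 3 genes, nor within 50 kb. Over all protein-coding genes 9.28% had an H3K9me3 peak within 10 kb, 2.28% an R-loop peak and 0.498% a DDX55 peak, so most genes had none either. The nearest H3K9me3 peaks were 153 kb from Zfp36, 267 kb from Zfp36l1 (641 bp wide) and 686 kb from Zfp36l2 (2424 bp wide), around the median of 318 kb over all genes. The nearest R-loop peaks were at 1240 kb from Zfp36, 119 kb from Zfp36l1 and 990 kb from Zfp36l2, where the median was 1150 kb and 8.43% of genes had an R-loop peak nearer than Zfp36l1 did. DDX55 peaks, of which the whole list held 243, were at 12900, 22600 and 7360 kb in the same gene order, against a median of 8840 kb. A place without a peak may still hold signal under the threshold of the peak caller.

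**Figure D4:**
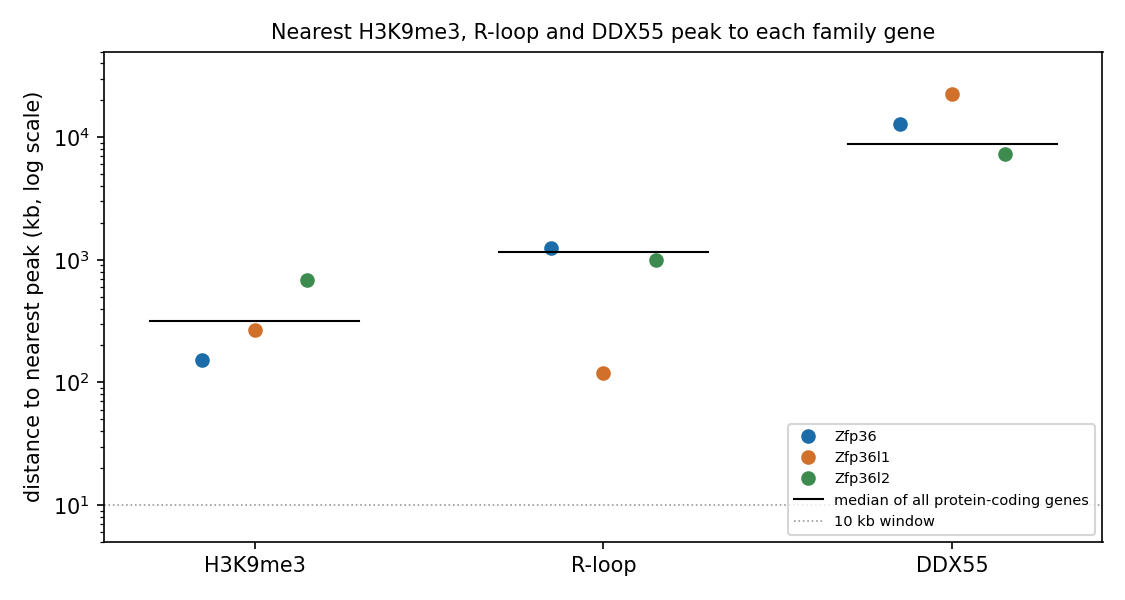
Distance in kb on a log scale from the span of each family gene to the nearest H3K9me3, R-loop and DDX55 peak (points), with the median over all protein-coding genes as a bar and the 10 kb window as a dotted line. No point reaches the window, and the points lie on both sides of the median in each list, with the Zfp36l1 R-loop distance of 119 kb the farthest below it.

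The position of polymerase peaks around the start was also compared between genes. Along the strand, from 5000 bp before to 5000 bp after the gene start, the covered bases of Zfp36 and Zfp36l1 had a Jaccard index (shared bases over all bases covered in either) of 0.27. With the higher-coordinate end of Zfp36l2 taken as its start, a choice made after the data were seen, the index was 0.38 with Zfp36 and 0.28 with Zfp36l1. The genes most like Zfp36 were Ap2b1 (0.78), Mdc1 (0.62) and Zfp292 (0.61), out of 5630 genes with a start in the promoter table and a peak near it. Those most like Zfp36l1 were Tubb5 (0.62), Znhit2 (0.56) and Higd2a (0.55). For Zfp36l2 the closest were Pdcd11 and Grcc10 (0.99 each) and Aldh6a1 (0.98). Its own profile there was the 1 peak of 1418 bp. With the lower-coordinate end as start the highest index was 0.37 (Idh3b). The likeness is one of position, measured in 1 merged list. The genes named are the highest of all those compared, and no index for a typical pair of genes was computed. Whether the indices within the family are low or high is therefore not known.

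A promoter window of 300 bases was met by an RNA polymerase II peak in 25.9% of protein-coding genes with such a window. It was also met in both family genes that had one, which follows from the peak over each start described above. All 300 bases were covered at Zfp36 and 102 of them at Zfp36l1.

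The genes of the decay machinery that the family recruits mostly carried RNA polymerase II as well. Over the span, 16 of 16 deadenylation genes had a peak, among them the CCR4-NOT subunit genes Cnot1 (829 bp), Cnot10 (583 bp), Cnot11 (457 bp) and Cnot2 (575 bp). Of 11 decapping and related decay genes 8 had one, such as Dcp1a (761 bp), Dcp1b (423 bp), the decapping enzyme gene Dcp2 (451 bp) and the helicase gene Ddx6 (1053 bp), and Edc3 had none within 10 kb. Of 16 exosome and related genes 9 had one, such as Dis3 (346 bp), Dis3l (610 bp), Exosc1 (927 bp) and Exosc10 (693 bp), while Dis3l2, Exosc2, Exosc3 and Ttc37 had none within 10 kb. All of these shares stand beside 32.2% of all protein-coding genes, and most of these genes are longer than the family genes.

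Regulators that act on the same messenger RNAs, or on the family proteins, had peaks in most cases, where 32.2% of all protein-coding genes had one over the span. A peak lay over 12 of 17 genes of other proteins that bind 3′ untranslated regions, among them Arid5a (1808 bp), Celf1 (878 bp) and Elavl1 (946 bp), which encodes the stabilising factor HuR. Fxr1, Hnrnpd, Zc3h12b and Zc3h12c had none within 10 kb. Among kinases, phosphatases and phosphoserine-binding adaptors a peak lay over 11 of 12 genes, and Ywhae had none. They included Mapk14 (1559 bp), which encodes p38, Mapkapk2 (503 bp), the gene of the kinase that phosphorylates tristetraprolin, Mapkapk3 (914 bp) and the phosphatase gene Dusp1 (1828 bp).

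Genes of messenger RNAs known as targets of the family were counted too. A peak lay over 5 of 20 (25.0%), close to the 32.2% of all genes: Bcl2 (991 bp), Myc (352 bp), Notch1 (1569 bp), Tnf (687 bp) and, named after its values were seen, Vegfa (892 bp). No peak lay within 10 kb of 14 genes, among them the cyclin gene Ccnd1, the cytokine gene Csf2 and the chemokine genes Cxcl1 and Cxcl2. Il2 and Ifng, picked out after their values were seen, also had none. Over all protein-coding genes 58.4% had no RNA polymerase II peak within 10 kb. The family relative Zfp36l3, an X-linked rodent gene of the placenta, had 0 peaks of any list within 10 kb. Over the 92 genes of the 6 pathway lists, 61 had an RNA polymerase II peak over the span and 68 within 10 kb. The shares of all protein-coding genes were 32.2% and 41.6%.

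**Figure D5:**
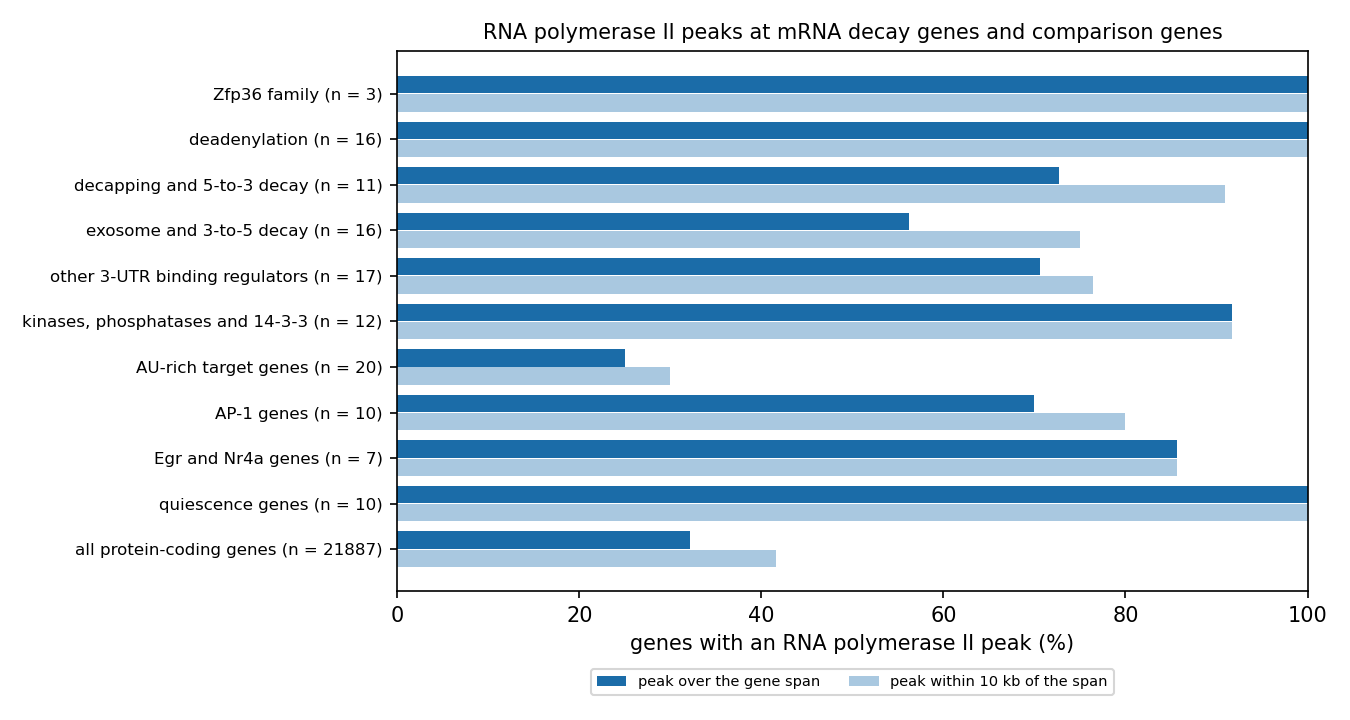
Percent of genes with an RNA polymerase II peak over the span (dark bars) or within 10 kb of it (light bars), for the Zfp36 family, 6 lists of the messenger RNA decay pathway, 3 comparison lists and all protein-coding genes, with the number of genes in brackets. The family and the deadenylation genes are at 100%, and the AU-rich target genes, 5 of 20 over the span, lie nearest to the share of all genes.

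Of the 92 genes in the pathway lists, only Parn, Zc3h12b, Eif4enif1 and Lsm14a had a peak of another list within 10 kb. Over all protein-coding genes 9.28% had an H3K9me3 peak at that window, 2.28% an R-loop peak and 0.498% a DDX55 peak. Parn, a poly(A) ribonuclease gene, had 2 H3K9me3 peaks over its span, the wider 2882 bp, and Zc3h12b had 1 of 574 bp. Eif4enif1 had 2 H3K9me3 peaks (widest 4134 bp) and a DDX55 peak of 1477 bp within 10 kb but outside its span. Lsm14a had an R-loop peak of 838 bp over its span. In the comparison lists, Slfn2 had an H3K9me3 peak of 1407 bp within 10 kb.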

How the data were processed

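For each target the authors deposited a single merged list of peaks, whose values are genomic coordinates in bp, another unit than counts or signal. Per the submitters' processing notes mm10 was used with MACS3 3.0.0b1, ChIPseeker 1.30.3, Bowtie2 2.5.0, SAMtools 1.15.1 and fastp 0.12.4 (no roles stated); peak thresholds, the way samples were merged and any control used are not given in the sources used here. Depth per sample is unknown.

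Peaks were placed on gene spans of a RefSeq table of GRCm38.p6 (49997 genes), with an overlap of at least 1 bp, in Python 3.11.15 with numpy 2.4.6 and pandas 2.3.3, and figures were drawn with matplotlib 3.10.9. Peak counts per gene were checked with bedtools 2.31.1 and on simulated data. Gene starts and sequences came from the RefSeq promoter table, using the outermost start of a gene. Samples were grouped by their titles, but the lists combine DDX55 KO and WT samples, so no test was run. A planned comparison of the proteins was not made.

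The members and gene lists were chosen with earlier results of these data known. Named genes were the family, every gene within 10 kb of it, the 3 most like each member (no Gm-number or Rik symbols), and, per list, the first 4 in alphabetical order with a peak over the span, the first 4 without one within 10 kb, and any gene with a peak of another list; other genes are said to be chosen later. Alternatives were windows of 3 and 50 kb, the span alone, the wider 50% of peaks, other overlap rules, joining peaks under 1000 bp apart, and other gene sets. Some genes that this rule names are not reported here.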

Additional observations from a re-analysis of the deposited data

How the results depend on the processing

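RNA polymerase II peaks were found at 3 of 3 family genes, and H3K9me3, R-loop and DDX55 peaks at 0 of 3, under every window, width and overlap rule tried. The number of RNA polymerase II peaks per gene followed the window: over the span alone it was 1 for Zfp36, Zfp36l1 and Zfp36l2, within 3 kb 1 for Zfp36, 3 for Zfp36l1 and 2 for Zfp36l2, and within 50 kb 6, 5 and 3 in the same order. With the wider 50% of peaks Zfp36 had 2 peaks, Zfp36l1 had 1 and Zfp36l2 had 2. The equal number per gene therefore did not hold at 3 kb, at 50 kb or with the wider peaks. Joining peaks under 1000 bp apart left 3 at each gene.

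The share of all protein-coding genes with a peak moved too. With the span alone it was 32.2% for RNA polymerase II, 5.40% for H3K9me3, 1.59% for R-loop and 0.324% for DDX55. Within 3 kb it was 36.5%, 6.41% and 1.80% for the first 3 lists, and within 50 kb 58.1%, 19.2%, 4.62% and 0.982% for all 4. With the wider 50% of peaks it was 27.8%, 6.15%, 0.914% and 0.251%. Among genes with spans of 2000 to 6000 bp it was 37.0%, 7.09%, 0.994% and 0.770%. Without Gm-number and Rik symbols it was 43.7% for RNA polymerase II, 8.30% for H3K9me3 and 0.373% for DDX55. These shifts follow from the larger or smaller window, peak set or gene set. No paired analysis was possible because the lists hold no value per sample, and leaving out a replicate was not possible for the same reason. Neither the error of a peak edge nor the depth behind a missing peak can be given from coordinates alone.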
